A study of Mus musculus with 10 samples.

Results

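The 2596 regions described here are H4K20me1 peaks that touched a protein-coding gene but lay mostly outside it. They were taken from the 44925 H4K20me1 peaks of the series, of which 41008 lay on an autosome, by 3 conditions: a length under 50000 bases, a listed gene of the type protein_coding, and a listed fraction of the peak inside that gene of under 0.5. The deposited fraction is rounded to 1 decimal, so members were listed at 0 to 0.4 and up to 45.0% of a member lay inside its gene by the coordinates. With the strand of the gene, 937 members were assigned to the 5′ side, because they extended only upstream of the gene start, and 1124 to the 3′ side, because they extended only downstream of the gene end. The remaining 535 covered the whole gene and extended on both sides, and are called spanning. Members made up 6.33% of the autosomal peaks and belonged to 2496 genes, 100 of which had both a 5′ and a 3′ member. They were compared with the 24463 autosomal peaks under the same length limit that lay mostly inside their protein-coding gene and with the 9035 that were listed with no gene.

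The peaks came from CUT&RUN, in which micrococcal nuclease is tethered to an antibody bound on chromatin, so that the DNA around the target is cut free and sequenced. The cells were mouse muscle stem cells (MuSCs, or satellite cells) in culture, isolated from limb and trunk muscle, from animals labelled Pax7CreERT/Suv4-20h1WT (Ctrl) or Pax7CreERT/Suv4-20h1KO (sKO). Suv4-20h1 is another name of Kmt5b. Both genotypes carry the tamoxifen-inducible Cre driven by the Pax7 locus, which restricts recombination to cells that express Pax7, and the methods describe tamoxifen treatment of adult mice. The labels give no age. Each genotype had 2 libraries for H4K20me1 and 2 for RNA polymerase II phosphorylated at serine 2 (Pol II S2P), which the study's methods call biological replicates. The IgG libraries, 1 for each genotype, were not analysed here.

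H4K20me1 is placed on histone H4 by KMT5A, mostly in late S phase, G2 and mitosis. KMT5B and KMT5C then convert it to the dimethylated and trimethylated forms, and loss of KMT5B is known to leave more of the monomethylated form. The mark is found over the bodies of many genes and over the inactive X chromosome, and PHF8 removes it. Pol II S2P is the elongating form of the polymerase. It is sparse at gene starts, increases along the gene and persists past the polyadenylation site, so a region downstream of a gene end can hold transcribing polymerase although the annotation places it outside the gene.

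Members on the 5′ side hold a gene start and members on the 3′ side hold a gene end, and the DNA of these kinds of region differs in CG dinucleotides, of which 5′ members had a median of 13.6 and 3′ members of 11.1 per kb. They are printed in capitals below. The first lines give the 250 bases before the start of 4 genes on the 5′ side and of 3 genes with a spanning member, and the last lines give the middle 200 bases of 2 members on the 3′ side, both of them outside the gene. Each is written 5′ to 3′ on the strand of its gene in GRCm38, from RefSeq for the gene starts and from the GRCm38.p6 genome for the members. They were chosen among the peaks with the largest or smallest genotype difference on their side and among the known genes described further on.
Fn3krp (5′ side, before the gene start, chr11:121421123-121421372, plus strand, 10 CG): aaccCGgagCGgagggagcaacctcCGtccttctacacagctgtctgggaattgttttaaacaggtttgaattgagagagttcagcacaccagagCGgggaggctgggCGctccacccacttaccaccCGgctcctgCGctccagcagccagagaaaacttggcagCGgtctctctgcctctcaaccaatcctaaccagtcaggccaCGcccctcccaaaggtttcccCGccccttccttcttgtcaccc
Hhat (5′ side, before the gene start, chr1:192771220-192771469, minus strand, 5 CG): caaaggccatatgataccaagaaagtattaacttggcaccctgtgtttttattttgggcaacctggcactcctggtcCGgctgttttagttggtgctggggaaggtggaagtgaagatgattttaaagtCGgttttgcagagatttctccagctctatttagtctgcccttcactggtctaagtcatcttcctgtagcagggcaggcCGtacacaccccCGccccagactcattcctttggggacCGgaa
Gadd45a (5′ side, before the gene start, chr6:67037408-67037657, minus strand, 11 CG): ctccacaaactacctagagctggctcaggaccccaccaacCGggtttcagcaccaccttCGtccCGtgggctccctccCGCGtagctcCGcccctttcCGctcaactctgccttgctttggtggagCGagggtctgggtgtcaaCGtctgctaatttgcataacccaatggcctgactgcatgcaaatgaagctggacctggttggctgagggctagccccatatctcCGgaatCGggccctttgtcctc
Raet1e (5′ side, before the gene start, chr10:22158319-22158568, plus strand, 16 CG): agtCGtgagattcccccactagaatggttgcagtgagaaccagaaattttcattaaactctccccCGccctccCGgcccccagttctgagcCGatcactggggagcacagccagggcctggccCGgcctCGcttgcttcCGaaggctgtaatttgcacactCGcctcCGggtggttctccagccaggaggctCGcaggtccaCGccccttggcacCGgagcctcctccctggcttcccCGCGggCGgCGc
Myf5 (spanning, before the gene start, chr10:107486135-107486384, minus strand, 3 CG): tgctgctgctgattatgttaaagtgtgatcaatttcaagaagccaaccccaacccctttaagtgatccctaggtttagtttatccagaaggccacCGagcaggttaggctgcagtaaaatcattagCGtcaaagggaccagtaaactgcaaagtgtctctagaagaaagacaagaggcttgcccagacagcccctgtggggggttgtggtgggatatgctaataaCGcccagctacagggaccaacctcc
Fos (spanning, before the gene start, chr12:85473640-85473889, plus strand, 15 CG): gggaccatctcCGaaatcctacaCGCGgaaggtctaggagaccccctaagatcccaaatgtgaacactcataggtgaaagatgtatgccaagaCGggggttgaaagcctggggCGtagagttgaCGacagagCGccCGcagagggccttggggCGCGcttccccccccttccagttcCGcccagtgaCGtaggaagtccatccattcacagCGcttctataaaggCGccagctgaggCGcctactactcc
Foxd1 (spanning, before the gene start, chr13:98353995-98354244, plus strand, 12 CG): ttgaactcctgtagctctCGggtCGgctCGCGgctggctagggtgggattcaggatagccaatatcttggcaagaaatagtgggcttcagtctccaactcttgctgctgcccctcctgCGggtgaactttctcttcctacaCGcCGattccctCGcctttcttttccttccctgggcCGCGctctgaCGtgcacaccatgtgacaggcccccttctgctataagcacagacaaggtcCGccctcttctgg
Vamp8 (3′ side, middle of the member, chr6:72384200-72384399, minus strand, 3 CG): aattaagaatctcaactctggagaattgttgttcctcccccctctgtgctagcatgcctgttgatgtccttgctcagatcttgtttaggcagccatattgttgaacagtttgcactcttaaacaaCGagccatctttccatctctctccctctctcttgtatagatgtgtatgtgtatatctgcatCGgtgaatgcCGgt
Hnrnpdl (3′ side, middle of the member, chr5:100031700-100031899, minus strand, 1 CG): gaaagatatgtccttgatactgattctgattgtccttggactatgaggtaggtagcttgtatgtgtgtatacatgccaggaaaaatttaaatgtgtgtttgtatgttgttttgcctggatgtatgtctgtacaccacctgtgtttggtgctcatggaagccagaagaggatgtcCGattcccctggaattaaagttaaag
CG dinucleotides were dense before the starts of Raet1e, Fos, Foxd1, Gadd45a and Fn3krp and rare in the gene-end window of Hnrnpdl. Fn3krp and Hhat had the largest genotype differences on the 5′ side and Raet1e one of the smallest, so the dense starts are found at both extremes. Over the 611 members on the 5′ side for which the RefSeq table held the gene start inside the member, the median was 9 CG in 250 bases and 49.3% had 10 or more, against a median of 6 and 37.8% over all 32817 starts in the table.

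The summed H4K20me1 score of all peaks was 15218720 and 20432644 for Ctrl and 32194136 and 35046570 for sKO, and for Pol II S2P it was 3257665 to 4885638. The score is coverage normalised by spike-in, a whole number for each peak and library that is not divided by peak length, and it holds no read count, so no counting interval is given. Of 8 muscle markers, 6 were listed with a Pol II S2P peak, with a summed score of 3736 to 5656 in the 4 libraries. Myf5 and Cdh15 were listed with none. Ptprc, Cdh5, Kdr and the 5 markers of fibro-adipogenic cells and glia were listed with none either, whereas Pecam1 (82 to 147), Cd3e (48 to 85) and Cd68 (840 to 1308) had a score. Kmt5b itself had a summed Pol II S2P score of 24 and 62 in Ctrl and of 48 and 22 in sKO, which did not separate the genotypes, so it was no check of the labels.

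H4K20me1 over the members was about the same height per length as over peaks inside genes, and it was higher in both sKO libraries than in both Ctrl libraries. The median score per kb of the 5′ members was 16.8 and 22.1 in Ctrl against 47.9 and 52.6 in sKO. On the 3′ side it was 19.0 and 25.8 in Ctrl against 47.7 and 51.7 in sKO. The 5′ side was thus the lower side in both Ctrl libraries and level with the 3′ side in both sKO libraries. Spanning members had 20.0 and 26.6 in Ctrl against 49 and 53.8 in sKO, and peaks mostly inside their gene had 18.9 and 25.9 in Ctrl against 47.5 and 51.4 in sKO. Peaks listed with no gene had 16.8 and 24.3 in Ctrl against 44.8 and 48.6 in sKO.

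**Figure D1:**
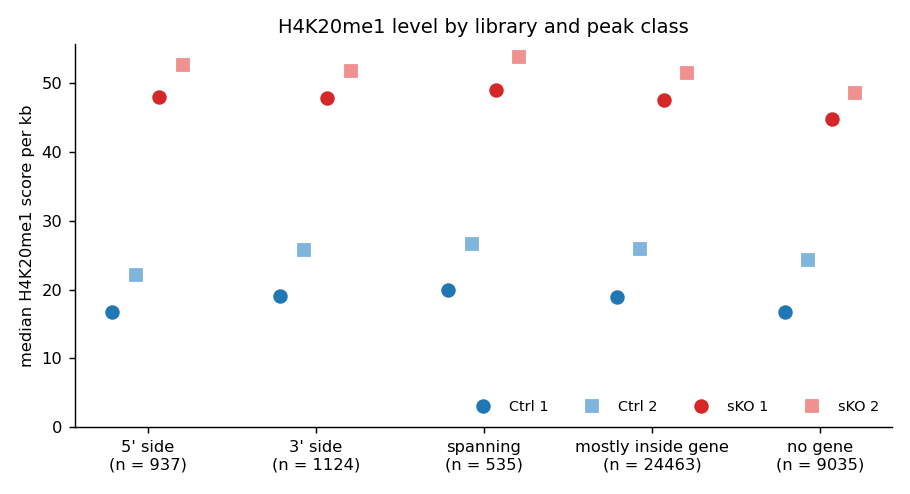
Median H4K20me1 score per kb (y axis) in each of the 4 libraries (blue Ctrl, red sKO, circles replicate 1, squares replicate 2) for the 3 kinds of member and the 2 classes of peak they were compared with (x axis, with the number of peaks). The 5′ side is below the 3′ side in Ctrl, at 16.8 and 22.1 against 19.0 and 25.8, and at the same level in sKO.

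On the log2 scale of score per kb, the 5′ side minus the 3′ side was -0.17 and -0.22 for Ctrl and 0.00 and 0.02 for sKO, a mean of -0.09 ± 0.12 (SD over 4 libraries, exact two-sided sign-flip permutation test p = 0.5, where the smallest possible p is 0.13). In such bulk libraries more marked cells and more of the mark per cell cannot be told apart. A level difference between the sides over all libraries was therefore not shown. Members as a whole exceeded peaks listed with no gene in every library, by 0.14, 0.03, 0.10 and 0.11 (exact sign-flip p = 0.13). Members were also longer, with a median of 12800 bases against 5800. Among peaks of 5000 to 10000 bases, those with no gene had 16.2 and 22.3 per kb in Ctrl. The 5′ side was below this at 14.9 and 18.8, the 3′ side had 17.4 and 23.2, and spanning members had 15.8 and 23.5. In sKO each kind of member was above the 43.5 and 48.5 of peaks with no gene.

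The library median of log2(score + 1) over all members was 8.03 ± 0.28 for Ctrl and 9.30 ± 0.10 for sKO (mean of n = 2 libraries with SD), a difference of 1.27 with an exact two-sided permutation p of 0.33, the smallest that 2 libraries against 2 allow. With limma, 2460 of the 2595 members past the filter on low scores passed as higher in sKO and 0 as lower, with the adjusted p below 0.1 and the log2 fold change beyond 0.5. The filter was a mean over 50 across the 4 libraries, which 74 of the members passed only through sKO, and 2387 of the 2521 others were called higher. Over all 40902 autosomal peaks tested, 90.1% were called higher and 0.00244% lower. With an unadjusted p below 0.05, 0 members were lower as well, and 6 members had a fold change below 0 of any size. Over all 40902 peaks tested these counts were 0 and 171. The sKO libraries were both above the Ctrl libraries in 2519 members (97%) and 0 members had the opposite order, against 93.9% of all peaks tested in the first order. The member under the filter was the 600-base peak at the start of Ap2m1, a clathrin adaptor subunit, with scores of 14 and 13 in Ctrl against 84 and 48 in sKO.

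The genotype difference was common to nearly all peaks, and its size depended on how the libraries were scaled. Scaling to equal totals removes by construction a difference common to all peaks. With the libraries scaled to equal totals, 783 members were called higher and 82 lower in sKO, against 22.6% and 4.41% of all peaks tested, and the median fold change of all peaks fell from 1.14 to 0.17. Without sKO replicate 2, the genotype difference in the library medians of the members was 1.20 on the deposited scale, against 1.27 with all 4 libraries. Members are therefore described below mainly by how their difference compared with that of other peaks in the same libraries, which does not depend on the scale.

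On equal totals, calls were most frequent on the 5′ side. Of its 936 tested members, 395 (42.2%) were called higher and 14 lower. On the 3′ side 252 of 1124 (22.4%) were called higher and 45 lower, and of the spanning members 136 of 535 (25.4%) were called higher and 23 lower. The share on the 3′ side was near the 22.6% of all peaks. On the deposited scale 907 members (96.9%) were called higher on the 5′ side, 1046 (93.1%) on the 3′ side and 507 (94.8%) among the spanning members. These shares stand against 90.1% of all peaks.

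To compare the classes within each library, the log2 scores of every peak were centred on their mean over the 4 libraries and the median was taken over each class. The 5′ side minus the 3′ side was -0.09 and -0.14 in Ctrl against 0.10 and 0.13 in sKO, so the difference between genotypes was 0.23 larger on the 5′ side (pooled SD 0.03, exact permutation p = 0.33). The median log2 fold change (sKO over Ctrl) was 1.38 on the 5′ side, with quartiles of 1.0 and 1.78, and 1.17 on the 3′ side, with quartiles of 0.88 and 1.46, so the distributions overlapped widely. Against peaks mostly inside their gene, whose median was 1.15, the 5′ side was 0.24 larger (pooled SD 0.03), the 3′ side 0.01 larger and the spanning members 0.01 smaller, and the last of these did not separate the genotypes (exact permutation p = 0.667). All members together were 0.08 larger than peaks mostly inside their gene (pooled SD 0.01, exact permutation p = 0.33). Against peaks listed with no gene the difference of all members was 0.03, less than its pooled SD of 0.04 (exact permutation p = 0.667). It became -0.00869 without Ctrl replicate 2 and 0.18 among peaks of 2000 to 10000 bases, where the classes are closer in length.

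The larger difference on the 5′ side was also seen within single genes. For 550 genes with a 5′ member and at least 1 peak mostly inside the gene, the member minus the median of the inside peaks was -0.09 and -0.12 in Ctrl against 0.09 and 0.11 in sKO, and the fold change was larger in the 5′ member in 66.5% of genes. For 618 genes with a 3′ member the same value was between -0.03 and 0.02 in all libraries, and the 3′ member had the larger fold change in 52.9%. Peaks mostly inside the gene that hold its start had a median fold change of 1.26. The 5′ side was 0.14 larger than these in the centred medians (pooled SD 0.01, exact permutation p = 0.33). They were longer, with a median of 16400 bases against 10800. The 342 peaks that extended only upstream but were listed at 0.5, just outside the limit, had 1.38, as did the 5′ side. The larger difference was thus not particular to the members.

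Pol II S2P, an independent antibody, divided the 5′ members. A Pol II S2P peak overlapped 301 of the 937 members on the 5′ side (32.1%), 462 of 1124 on the 3′ side (41.1%) and 255 of 535 spanning members (47.7%). The 5′ minus the 3′ side was -8.98 percentage points, and -4.91 when members were limited to a listed fraction under 0.25. The share was 27.4% for peaks mostly inside their gene and 10.1% for peaks with no gene, which were shorter, with a median length of 9200 and 5800 bases against 10800 on the 5′ side, 10900 on the 3′ side and 24000 for spanning members.

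The 301 members on the 5′ side with Pol II S2P had a median H4K20me1 score per kb of 14.5 and 17.9 in Ctrl, and the 636 without had 18 and 24.4. In sKO the values were 49.0 and 53.6 with Pol II S2P and 47.2 and 52.1 without. In 5′ members that overlapped Pol II S2P, at the listed gene or outside it, the mark was thus lower in both Ctrl libraries, by 0.30 and 0.42 on the log2 scale of score per kb, and slightly higher in both sKO libraries, by 0.05 and 0.04. The median fold change was 1.71 with and 1.25 without Pol II S2P, and in centred medians the difference between the 2 sets was 0.42 (pooled SD 0.05, exact permutation p = 0.33). On equal totals, 191 of the 300 tested 5′ members with Pol II S2P (63.7%) were called higher and 3 lower, against 22.6% and 4.41% of all peaks. Without Pol II S2P, 32.1% of the 5′ members were called higher. Of the peaks with Pol II S2P in the other classes, 54.8% of those with no gene and 33.4% of those mostly inside their gene were called higher. The members with Pol II S2P also had more CG dinucleotides, with a median of 15.4 against 13 per kb, and more often held another gene start, in 17.3% against 6.13%, and the part of these in the result was not tested.

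Over the whole 3′ side the 2 sets were closer. The median fold change was 1.18 with and 1.16 without Pol II S2P, and in centred medians these differed by 0.01, less than the pooled SD of 0.04 (exact permutation p = 1). Among peaks of 2000 to 10000 bases they differed by 0.17, against 0.56 on the 5′ side. The contrast between the sides, with and without Pol II S2P, came to 0.40 (pooled SD 0.05, exact permutation p = 0.33). The sets were not matched for their level in Ctrl in this contrast. Spanning members with Pol II S2P were 0.26 larger than those without, and peaks mostly inside their gene 0.09 larger. Peaks listed with no gene resembled the 5′ side in this respect, at 1.71 with and 1.15 without Pol II S2P. Among members without Pol II S2P, the 5′ side was 0.09 larger than the 3′ side, and among members with it 0.49 larger.

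**Figure D2:**
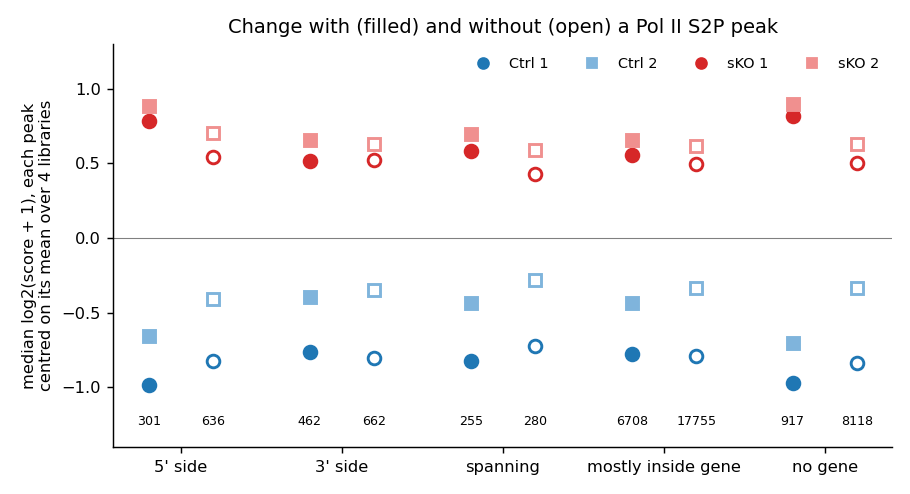
Median log2(score + 1) of H4K20me1 in each library after centring every peak on its mean over 4 libraries (y axis), for peaks with (filled) and without (open) an overlapping Pol II S2P peak in each class (x axis, number of peaks at the bottom; blue Ctrl, red sKO, circles replicate 1, squares replicate 2). The filled points lie farther from 0 than the open points on the 5′ side (fold change 1.71 against 1.25) and for peaks with no gene, and next to them on the 3′ side (1.18 against 1.16).

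Pol II S2P lay at different places in the members of the 2 sides. Among 5′ members, peak centres were found in 13.4% of the members in the kilobase just upstream of the gene start and in 10.9% in the first kilobase of the gene, and in at most 4.6% in any other kilobase within 10 kb. On the 3′ side, 10.9% of the members had a peak centre in the first kilobase past the gene end, 15.3% in the second and 13.9% in the third, and 5.25% had one in the tenth. In the last kilobase of the gene it was 6.75%. Of 462 members on the 3′ side with a Pol II S2P peak, 443 had a centre outside the gene and 151 a centre inside it. Of the 301 on the 5′ side, 215 had one outside and 150 one inside.

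**Figure D3:**
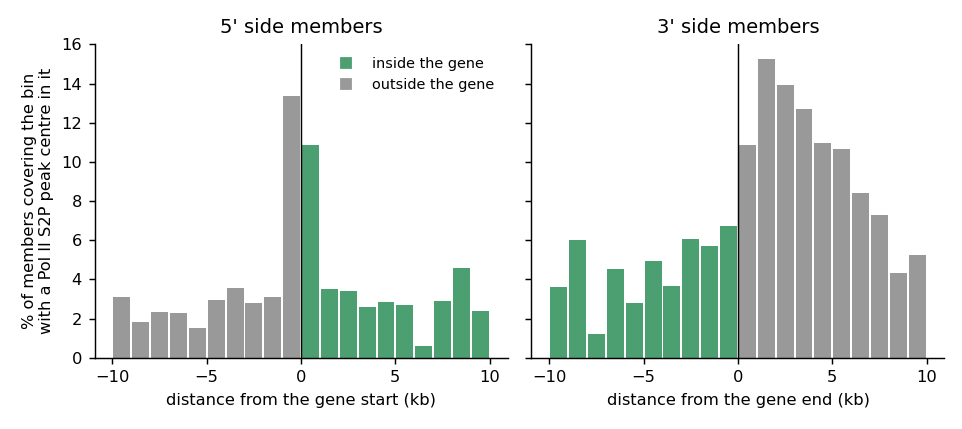
Share of the members covering each 1-kb bin that hold the centre of a Pol II S2P peak in it (y axis), by distance along the direction of the gene from the gene start for the 5′ side and from the gene end for the 3′ side (x axis; green inside the gene, grey outside). The share is highest next to the gene start on the 5′ side, at 13.4%, and 1 to 2 kb past the gene end on the 3′ side, at 15.3%.

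Summed over the 3′ members, the Pol II S2P score per kb outside the gene was 9.25 and 11.9 in Ctrl against 14.6 and 9.83 in sKO, and inside the gene it was 3.42 and 3.99 in Ctrl against 4.68 and 3.27 in sKO. The outer part was thus 2.71 to 3.13 times as high in the 4 libraries, and 3.3 to 3.54 times without the 10 members of highest Pol II S2P score. Among 5′ members the part outside the gene was lower, at 0.63 to 0.66 times the part inside, and for spanning members the ratio was 1.05 to 1.10.

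The amount of Pol II S2P in the members did not separate the genotypes. Over the 1018 members with a Pol II S2P peak, the median of log2(summed score + 1) was 6.57 and 7.01 in Ctrl against 7.11 and 6.70 in sKO, a difference of 0.12 with a pooled SD of 0.30 (exact permutation p = 0.667). It became -0.02 on equal totals, -0.10 without Ctrl replicate 1 and -0.09 without sKO replicate 1. The 5′ members had 6.07 and 6.51 in Ctrl against 6.57 and 6.13 in sKO, and on the 3′ side 6.79 and 7.20 in Ctrl against 7.44 and 6.95 in sKO. In both, the 2 genotypes overlapped.

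Of the 1322 Pol II S2P peaks in members that passed the filter, limma called 2 higher in sKO and 0 lower on the deposited scale, and 67 had an unadjusted p under 0.05. Over all 22353 Pol II S2P peaks tested, 0.0447% were called higher and 0.00447% lower, and 774 had an unadjusted p under 0.05. The 2 peaks called in members lay in spanning members. They were at Fxyd4, a regulator of the sodium pump, and at Tgfb1i1, a focal adhesion adaptor that was chosen after its values were seen. The peak at Fxyd4 had 28 and 53 in Ctrl against 193 and 112 in sKO (log2 fold change 1.90 ± 0.43, SE). It passed the filter only through sKO, so no p is given for it. That at Tgfb1i1 had 37 and 107 in Ctrl against 256 and 199 in sKO (1.82 ± 0.40, SE, limma adjusted p = 0.0438). Neither was called when the filter on low scores was removed or when a replicate block was fitted. On equal totals, 47 of the 1322 (3.56%) were called higher and 12 (0.908%) lower, against 2.51% and 1.19% of all Pol II S2P peaks, shares near the background.

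The genotype difference of a member went with its level in Ctrl. Members were divided into 4 equal groups by score per kb in Ctrl replicate 1, and the difference was measured from Ctrl replicate 2, so that one library did not serve for both. For 5′ members the median log2 difference was 1.73 in the group of lowest Ctrl level, then 1.24, 0.86 and 0.61. On the 3′ side it was 1.53, 1.13, 0.89 and 0.58. The sides differed most in the lowest group and hardly in the upper ones, and the 5′ side had 35.0% of its members in the lowest group against 20.0% of the 3′ side. Within that group, 5′ members with Pol II S2P had a difference of 1.89 and those without 1.58, and 3′ members had 1.71 and 1.35. In this group the 2 sets thus lay about as far apart on the 3′ side as on the 5′ side. In the second group the values were 1.34 and 1.15 on the 5′ side and 1.24 and 1.06 on the 3′ side. In the third they were 0.96 and 0.80 against 0.95 and 0.85, and in the highest 0.72 and 0.59 against 0.57 and 0.60. A Pol II S2P peak overlapped 19.4% of the 5′ members of the highest group and 51.7% of its 3′ members.

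**Figure D4:**
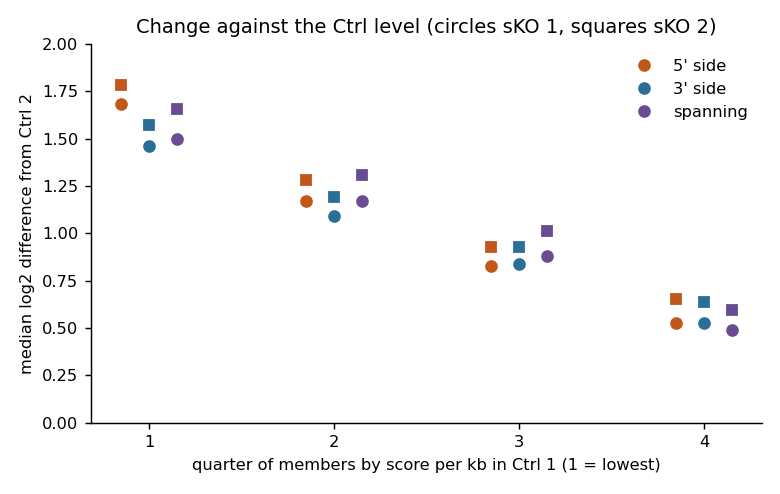
Median log2 difference of sKO replicate 1 (circles) and sKO replicate 2 (squares) from Ctrl replicate 2 (y axis) for members in 4 equal groups by H4K20me1 score per kb in Ctrl replicate 1 (x axis, lowest to highest), on the 5′ side (orange), on the 3′ side (blue) and spanning (purple). The difference is smaller at higher Ctrl levels in all 3 kinds of member, and in the lowest group it is larger on the 5′ side, at 1.69 and 1.78, than on the 3′ side, at 1.46 and 1.57.

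The level in sKO hardly varied between these groups, with a median of 47.1 to 48.5 per kb in sKO replicate 1 over all members. From the 5th to the 95th percentile of members, the score per kb spanned a factor of 3.06 and 3.49 in the Ctrl libraries, 1.6 and 1.67 in the sKO libraries and 1.56 in the mean of the 4. The peaks were called as 1 union set for the antibody, so regions low in both genotypes are not among them, and the part of this in the relation with the Ctrl level was not tested.

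Other features of the members went with the difference as well. On the 5′ side the median fold change was 1.12 for members with up to 8 CG dinucleotides per kb, then 1.29 (8 to 12), 1.44 (12 to 16) and 1.52 (over 16), and the share with a Pol II S2P peak was 11.5%, 24.4%, 34.9% and 42.4% in the same groups. On the 3′ side the fold change was 1.14, 1.18, 1.17 and 1.24, while the Pol II S2P share went from 21.2% to 64.5%. CG density over the whole member thus went with the difference on the 5′ side and little on the 3′ side. The trend was not particular to 5′ members. From the lowest to the highest CG group, the median fold change of peaks listed with no gene went from 1.12 to 1.5. For peaks mostly inside their gene it went from 1.07 to 1.26. In centred medians the 5′ side was 0.09 larger than the 3′ side among members with up to 12 CG per kb and 0.29 larger above that. The CG count of the 250 bases before the gene start divided 5′ members less, with a median of 1.5 at 10 or more CG and 1.37 below. Longer members had smaller fold changes, 1.14 on the 5′ side and 1.02 on the 3′ side above 20000 bases against 1.56 and 1.25 at 5000 to 10000 bases, and the 5′ side was the larger in each length group.

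The overhang outside the gene had a median of 8078 bases on the 5′ side, 7870 on the 3′ side and 16924 in spanning members. Neighbouring protein-coding genes took 8.75%, 11.8% and 19.2% of this overhang. Another protein-coding gene was overlapped by 15.7% of the 5′ members, 21.2% of the 3′ members and 49.5% of the spanning ones, and another gene start lay in 9.71%, 14.9% and 32.5%. Without the members that overlapped another protein-coding gene, the 5′ side was still 0.24 larger than the 3′ side. Members just inside the limit on overlap, listed at 0.4, had a median fold change of 1.42 on the 5′ side and 1.15 on the 3′ side, and peaks of the same kind just outside it, listed at 0.5, had 1.38 and 1.07.

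On the 5′ side the largest fold changes were found at Hhat, the acyltransferase that palmitoylates Hedgehog proteins, and at Fn3krp, a kinase that removes sugars from glycated proteins. The member at Fn3krp (chromosome 11, 121420600 to 121421999) had scores of 5 and 12 in Ctrl against 146 and 96 in sKO (log2 fold change 3.76 ± 0.90, SE). That at Hhat (chromosome 1, 192770000 to 192773999) had 43 and 4 in Ctrl against 155 and 283 in sKO (3.83 ± 0.62). Both passed the filter only through sKO, so no p is given for them. The genotypes did not overlap at either, but the Ctrl scores were low and those of Hhat lay far apart, and its fold change became 2.26 when Ctrl replicate 2 was left out and 5.40 when Ctrl replicate 1 was. The smallest were at Epha10, an ephrin receptor, with 57 and 105 in Ctrl against 84 and 64 in sKO, and at Raet1e, a ligand of the immune receptor NKG2D, with 890 and 1298 in Ctrl against 754 and 1463 in sKO. Their fold changes were -0.08 ± 0.51 and -0.03 ± 0.27 and the groups overlapped, and on equal totals both were called lower in sKO, with -1.05 and -1.01. Raet1e belongs to a family of near-identical genes, so its score is uncertain.

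Raet1e also had one of the 2 highest Ctrl levels on the 5′ side, at 57.1 and 83.2 per kb, next to the 1400-base member at Ifit1bl1, a member of an interferon-induced family, at 39.3 and 57.9. The 5′ members with most Pol II S2P in Ctrl were those of Rab30, a small GTPase of the Golgi, and of 1700001K19Rik, whose member overlaps Hsp90aa1, an abundant chaperone. Pol II S2P summed to 1810 and 2246 in Ctrl against 3081 and 2074 in sKO at Rab30, and to 1224 and 1601 in Ctrl against 2268 and 1367 in sKO at 1700001K19Rik. H4K20me1 at these was 278 and 354 in Ctrl against 812 and 896 in sKO at Rab30 (1.44 ± 0.28, limma adjusted p = 1.64e-06), and 531 and 589 in Ctrl against 882 and 990 in sKO at 1700001K19Rik (0.74 ± 0.27, adjusted p = 0.00884).

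On the 3′ side the largest fold changes were at Vamp8, a SNARE protein of endosomes and lysosomes, and at Fam189a2. The Vamp8 member (chromosome 6, 72382400 to 72386199) had 12 and 10 in Ctrl against 179 and 192 in sKO (3.96 ± 0.69, SE), and it held 1 Pol II S2P peak with 69 to 131. Fam189a2 had 20 and 9 in Ctrl against 142 and 131 in sKO (3.25 ± 0.72), with no Pol II S2P peak. At both, the groups were far apart on low Ctrl scores, and both passed the filter only through sKO, so no p is given.

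The 3′ members with the smallest fold changes held much Pol II S2P. Hnrnpdl, an RNA-binding protein (member at chromosome 5, 100025200 to 100038399), had 533 and 788 in Ctrl against 524 and 569 in sKO, and Mto1, an enzyme of mitochondrial tRNA modification whose member overlaps the elongation factor gene Eef1a1, had 141 and 262 in Ctrl against 209 and 158 in sKO. Their fold changes were -0.25 ± 0.27 and -0.08 ± 0.34 and the groups overlapped. These were also the 2 members of the 3′ side with most Pol II S2P, which summed to 2228 and 2951 in Ctrl against 4259 and 2434 in sKO at Hnrnpdl and to 2856 and 2978 in Ctrl against 3658 and 2270 in sKO at Mto1. Among the highest in Ctrl was the 1200-base member at Gm10354, with scores of 26 and 114 in Ctrl, which differed by more than the genotypes did. On equal totals Hnrnpdl and Mto1 were called lower in sKO, with fold changes of -1.23 and -1.06.

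Among spanning members, the largest fold changes were at S100a16 and S100a5, which encode calcium-binding proteins and lie close together on chromosome 3. S100a16 had 63 and 70 in Ctrl against 651 and 782 in sKO (3.41 ± 0.32, limma adjusted p = 1.07e-21), and S100a5, whose member also covers S100a6, had 65 and 74 in Ctrl against 423 and 555 in sKO (2.79 ± 0.34, adjusted p = 9.41e-14). Pol II S2P at S100a5 summed to 729 and 849 in Ctrl against 1026 and 662 in sKO and at S100a16 to 35 and 72 in Ctrl against 95 and 37 in sKO. The genotypes overlapped for Pol II S2P at both. For H4K20me1 both sKO libraries were above both Ctrl libraries, as in 93.9% of all peaks tested.

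The smallest fold changes among spanning members were at Gm10153, 0.05 ± 0.29, and at Foxd1, a forkhead transcription factor, 0.14 ± 0.27. The highest Ctrl levels were at Hoxd11, in a member that covers 6 further genes from Evx2 to Hoxd8, and at Upf1, the helicase of nonsense-mediated decay. Hoxd11 had 43.0 and 62.8 per kb in Ctrl against 55.1 and 61.2 in sKO, and Upf1 43.1 and 54.0 in Ctrl against 54.0 and 61.1 in sKO. Slc25a10, a mitochondrial dicarboxylate carrier, and Fxyd4 had most Pol II S2P. Slc25a10 was called higher for H4K20me1 (1.29 ± 0.27, limma adjusted p = 1.07e-05) and Fxyd4 was not (0.43 ± 0.27, adjusted p = 0.128). On equal totals Gm10153, Foxd1, Hoxd11, Upf1 and Fxyd4 were called lower in sKO, with fold changes of -0.93, -0.84, -0.82, -0.73 and -0.55.

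**Figure D5:**
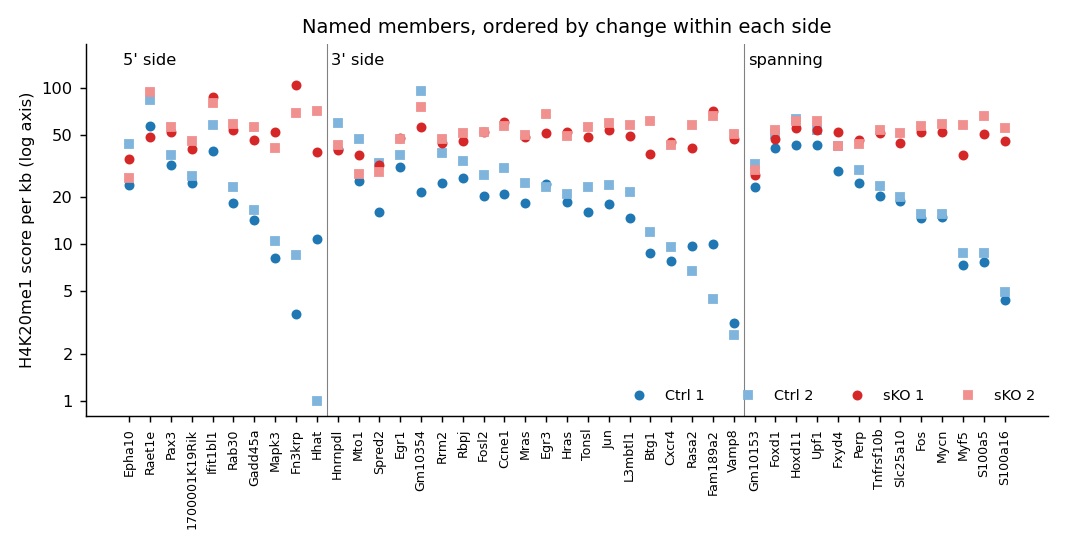
H4K20me1 score per kb on a log axis (y axis) in each of the 4 libraries (blue Ctrl, red sKO, circles replicate 1, squares replicate 2) for the named members, grouped by side and ordered by fold change within it (x axis). The sKO points lie between 26.7 and 104. The Ctrl points are mostly lower towards the right within each side, as at Vamp8 on the 3′ side with 3.16 and 2.63.

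The members were also read against lists of genes of known function. Of 157 genes in 6 lists, 96 had an H4K20me1 peak and 23 had a member, of which 21 were called higher in sKO and 0 lower on the deposited scale, and 9 higher and 0 lower on equal totals, against the 90.1% and 22.6% of all peaks. Their median fold change was 1.36, against 1.23 over all members and 1.14 over all peaks tested. The 2 that were not called were at Spred2, an inhibitor of Ras signalling (0.39 ± 0.45), and at Egr1, an immediate early transcription factor (0.48 ± 0.28).

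Of the satellite cell and myogenic factors, 4 had a member and all 4 were called higher, as were 90.1% of all peaks. Myf5, which marks committed satellite cells, had a spanning member (chromosome 10, 107479600 to 107487199) with 56 and 67 in Ctrl against 284 and 442 in sKO (2.51 ± 0.37, limma adjusted p = 3.59e-10). It held 2 Pol II S2P peaks that summed to 128 and 83 in Ctrl against 95 and 54 in sKO. Cxcr4, a chemokine receptor, had a 3′ member with 53 and 65 in Ctrl against 304 and 293 in sKO (2.33 ± 0.38, adjusted p = 2.41e-08). Rbpj, the transcription factor of Notch signalling, had a 3′ member with 393 and 504 in Ctrl against 672 and 765 in sKO, and Pax3, a paired box factor, a 5′ member of 45600 bases with 1472 and 1704 in Ctrl against 2378 and 2551 in sKO. Rbpj and Pax3 had smaller fold changes than the median peak, 0.69 and 0.64, and were not called on equal totals, where Myf5 and Cxcr4 were called higher.

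Of the Ras pathway genes, Mapk3, which encodes ERK1, had a 5′ member with 54 and 69 in Ctrl against 345 and 272 in sKO (2.31 ± 0.38, limma adjusted p = 2.02e-08), and Rasa2, a Ras GTPase-activating protein, a 3′ member with 62 and 43 in Ctrl against 264 and 367 in sKO (2.57 ± 0.39, adjusted p = 1.67e-09). Hras and its relative Mras had 3′ members with fold changes of 1.36 and 1.21. Of the immediate early genes, 5 of 6 members were called higher, a share no larger than the 90.1% of all peaks. Fos had a spanning member with 279 and 298 in Ctrl against 995 and 1078 in sKO, Jun a 3′ member with 105 and 138 in Ctrl against 312 and 347 in sKO, and Btg1, an antiproliferative factor, a 3′ member with 65 and 89 in Ctrl against 277 and 454 in sKO. At these 3 both sKO libraries were above both Ctrl libraries, as in 93.9% of all peaks tested. Fosl2 and Egr3 had fold changes of 1.12 and 1.31.

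Of the p53 response genes, Gadd45a, which acts in growth arrest after DNA damage, had a 5′ member with 352 and 405 in Ctrl against 1136 and 1380 in sKO (1.73 ± 0.27, limma adjusted p = 6.72e-09). Perp, a desmosomal protein, and Tnfrsf10b, a death receptor, had spanning members with fold changes of 0.73 and 1.26. Of the genes of G1 and S phase, Mycn had a spanning member with 278 and 289 in Ctrl against 965 and 1085 in sKO (1.85 ± 0.28, adjusted p = 1.12e-09), and Ccne1, cyclin E1, and Rrm2, a subunit of ribonucleotide reductase, had 3′ members with fold changes of 1.20 and 0.57. Of the genes of H4K20 methylation and its readers, L3mbtl1, a protein that binds monomethylated and dimethylated H4K20, and Tonsl, which binds unmethylated H4K20 on newly replicated chromatin, had 3′ members with fold changes of 1.58 and 1.42. All of these were called higher on the deposited scale, as were 90.1% of all peaks tested. On equal totals Gadd45a, Mycn and L3mbtl1 were called higher. Perp, Tnfrsf10b, Ccne1, Rrm2 and Tonsl were not called there, with fold changes of -0.25, 0.28, 0.22, -0.41 and 0.44.

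Members at genes of developmental transcription factors had more H4K20me1 in Ctrl and a smaller fold change than members at large, which is given as a description with no test. The 80 members at homeobox, forkhead, Sox, T-box, Gata and neural basic helix-loop-helix genes, a set chosen by gene symbol after the values were seen, had a median of 26.4 and 36.6 per kb in Ctrl against 49.1 and 56.0 in sKO. Their Ctrl level was thus above the 18.6 and 24.8 of all members, and their median fold change was 0.75 against 1.23. They were rich in CG dinucleotides, with a median of 18 per kb against 12.7, and 11 of the 80 (13.8%) overlapped a Pol II S2P peak against 39.2% of all members. On equal totals 8 of the 80 were called higher and 10 lower, against 22.6% and 4.41% of all peaks. The 32 members at olfactory receptor genes, a family in which some genes share near-identical sequence, had a median fold change of 0.89. They had a median of 5.79 CG per kb and a single member with Pol II S2P.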

How the data were processed

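H4K20me1 and Pol II S2P CUT&RUN libraries were analysed from the tables of union peaks that the authors deposited. The authors trimmed reads with Trimmomatic 0.39, aligned them to mm10 (GRCm38) with STAR 2.7.3a keeping unique alignments, removed duplicates with Picard 2.21.7, called peaks (the submitters' processing notes name SICER 0.0.41 and MACS2 2.1.1), pooled them into 1 set per antibody and normalised coverage by S2 spike-in DNA. The deposited value is a score, the normalised coverage of a peak, and the deposited fraction is the share of the peak inside its listed gene. H4K20me1 peaks start at multiples of 200 bases. The spike-in reads were not used here, so the scale between libraries was not checked.

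Genotypes were compared with limma 3.58.1 in R 4.3.3 on log2(score + 1) over all autosomal peaks with a mean over 50, with a mean-variance trend and Benjamini-Hochberg adjustment. Calls needed an adjusted p below 0.1 and a log2 fold change beyond 0.5, the limits of the study. The scores are not read counts, so no count model was used, and fold changes of low scores are understated by the pseudocount. The procedure was tested on simulated data with few peaks changed, in either direction, and libraries of equal scale. That setting differs from the shift common to nearly all H4K20me1 peaks here, so it does not show how the calls perform under such a shift. Class medians were compared with exact two-sided permutation tests in Python 3.11.15 with numpy 2.4.6 and pandas 2.3.3. The study calls the libraries of a group biological replicates, the labels do not tie them to animals, and p-values measure the spread between these libraries. GENCODE M21 held 2495 of the 2496 member genes, 2472 with the same coordinates, and sequences were read with pysam 0.24.0. Overlap with Pol II S2P needed 1 shared base. Named peaks were, on each side, the 2 highest in Ctrl score per kb, the 2 largest and 2 smallest fold changes, the 2 highest in Ctrl Pol II S2P, and every member at a listed gene. One member that the rule names is not reported here. Members and lists were chosen with earlier results of these data known. No deposited value column was left unmapped.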

Additional observations from a re-analysis of the deposited data

How the results depend on the processing

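Of 101 alternatives, 83 kept the direction of a value or left a count within 1.5 times, 13 moved a count by more and 5 reversed a value. The count of members called higher for H4K20me1, 2460, became 783 on equal totals, 510 after quantile normalisation and 1095 with the overlap limit at 0.25, which keeps fewer members by construction, and lay between 1331 and 2553 with 1 library left out. Equal totals and quantile normalisation remove by construction a difference common to all peaks. The count of 2 members with a called Pol II S2P peak became 52 on equal totals, 38 after quantile normalisation, 0 without the filter on low scores, 0 with the replicate block and 1 with the overlap limit at 0.25, and lay between 0 and 9 with 1 library left out, where the cause was not tested. The genotype difference of Pol II S2P within members was -0.0223 on equal totals and lay between -0.104 and 0.337 with 1 library left out, that of members against peaks with no gene lay between -0.00869 and 0.0618, and that of 3′ members with against without Pol II S2P between -0.0272 and 0.0647, reversing without Ctrl replicate 2. Where the direction was kept the size could still move: the difference of members between genotypes was 1.27 and became 0.29 on equal totals, and the share with Pol II S2P on the 5′ minus the 3′ side became -4.91 points with the overlap limit at 0.25. Among peaks of 2000 to 10000 bases, members exceeded peaks inside their gene by 0.153 and peaks with no gene by 0.176, against 0.0766 and 0.028 over all lengths, and 3′ members with Pol II S2P exceeded those without by 0.171. The difference between the 5′ and the 3′ side kept its direction in all 13 alternatives, from 0.0878 (members with no Pol II S2P peak, chosen after seeing the data) to 0.29. Replicate numbers do not pair the libraries by the labels, and deviations of same-numbered libraries had a correlation across peaks of 0.0345 for H4K20me1 and -0.0445 for Pol II S2P. With the replicate block 2465 members were called higher for H4K20me1. The scores hold no read counts, and 2 libraries per group set the precision.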

Other observations

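Part of the DNA that the annotation of protein-coding genes leaves outside the listed gene is annotated as long non-coding RNA. A gene of this type overlapped 201 of the 937 members on the 5′ side (21.5%), 181 of the 1124 on the 3′ side (16.1%) and 153 of the 535 spanning members (28.6%). Of the Pol II S2P peaks centred outside the gene within 3′ members, counted once for each member they overlap, 797 of 1146 were listed with no gene, 296 with another gene and 53 with the gene of the member. On the 5′ side 190 of 358 were listed with no gene, 94 with another gene and 74 with the gene of the member. On the 5′ side the start of another protein-coding gene on the opposite strand lay in 57 members and one on the same strand in 50, and on the 3′ side in 80 and 112.

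Spanning members did not follow the 5′ side in CG density. Their median fold change was 1.09, 1.16, 1.17 and 1.11 from the lowest to the highest of the 4 groups of CG per kb, whereas the share with a Pol II S2P peak went from 11.3% to 54.8%. Where the start of their gene held 10 or more CG in 250 bases the median was 1.11, and 1.17 where it held fewer.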
